A study of Mus musculus with 12 samples.

Results

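The effect of AMPK loss shared by both sorted populations of a mouse acute myeloid leukemia was measured on all 12 expression arrays of the series: the 6 arrays described AMPK_delta were set against the 6 described WT, with the sorted population as a covariate. All 12 samples were bone marrow cells of strain C57BL/6J that expressed MLL-AF9, a fusion oncogene found in human leukemia, and that had been transplanted, 50000 progenitor and stem cells per recipient, into mice given 10 Gy. The WT cells carried the floxed genotype AMPKfl/fl and the AMPK_delta cells the deleted genotype AMPKΔ/Δ, so the controls had floxed alleles too. From marrow taken when each recipient fell ill, 5000 cells were sorted, either every GFP+ cell (whole leukemia) or the L-GMP fraction, which was GFP+, lin-, c-kit+, CD16/32+ and CD34+. This gave 4 groups of 3 arrays: WT whole, AMPK_delta whole, WT L-GMP and AMPK_delta L-GMP. The labels do not name the deleted subunit or exon, what drove the deletion, or whether replicates came from separate mice, so the p-values speak only to the spread among these arrays, part of which may be technical. Whole and L-GMP arrays of one genotype and number may come from 1 leukemia, which leaves at most 3 independent leukemias a genotype.

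AMPK is the kinase by which cells sense falling energy. It is a trimer of a catalytic alpha, a scaffold beta and an AMP-binding gamma subunit, is switched on by the kinase LKB1, and acts by phosphorylating enzymes and regulators of glucose uptake, fat metabolism, autophagy and growth. Leukemic granulocyte-macrophage progenitors are the fraction of MLL-AF9 leukemias richest in cells that start the disease anew.

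Levels are log2 of the deposited intensity. Array medians lay between 36.9 and 39.3 on the linear scale, and arrays correlated at 0.865 to 0.983 over the 17749 genes tested. The AMPK_delta whole array of number 2 stood apart: on the first principal component, which held 32.4% of the variance, its score was 67.4, and the other 11 scored between -24.2 and 18.5. Of the genes behind the sorting gate, Cd34 read 9.45 to 10.05 in the 6 L-GMP arrays and 5.54 to 9.38 in the 6 whole leukemia arrays, while Fcgr3, which encodes a CD16/32 receptor, overlapped (8.64 to 9.19 and 8.76 to 9.45). In bulk samples fewer cells of a type and less RNA per cell cannot be told apart.

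Over both populations, 4 genes passed the genotype test and all 4 fell in AMPK_delta: the long noncoding RNA 1700080G11Rik, Stag3, which encodes the meiotic form of a cohesin subunit, Dennd5b, which encodes a DENN domain protein of membrane traffic, and Mid1, an X-linked gene of a microtubule-bound ubiquitin ligase. They make up 0.0225% of the genes tested (limma, Benjamini-Hochberg adjusted p under 0.05), and 0 genes rose. At an unadjusted p under 0.05 stood 1157 genes (6.52%), 549 higher (3.09%) and 608 lower (3.43%), where 887 would do so with no effect at all. The 250 bases before the RefSeq start site of each of the 4 genes (assembly GRCm38.p6, written 5′ to 3′ on the gene's strand) are printed here because the 4 genes moved together in both populations; 8 motifs were searched on both strands, and a match is shown in capitals. The stretches are chr4:127474591-127474840 on the plus strand for 1700080G11Rik, chr5:138280259-138280508 on the plus strand for Stag3, chr6:149101681-149101930 on the minus strand for Dennd5b, and chrX:169684949-169685198 on the plus strand for the first of the 3 start sites of Mid1.
1700080G11Rik: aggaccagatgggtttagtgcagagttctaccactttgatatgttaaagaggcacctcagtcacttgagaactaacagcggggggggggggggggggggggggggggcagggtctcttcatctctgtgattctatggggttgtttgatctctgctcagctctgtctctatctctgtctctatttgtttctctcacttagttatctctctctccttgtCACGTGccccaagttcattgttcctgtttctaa
Stag3: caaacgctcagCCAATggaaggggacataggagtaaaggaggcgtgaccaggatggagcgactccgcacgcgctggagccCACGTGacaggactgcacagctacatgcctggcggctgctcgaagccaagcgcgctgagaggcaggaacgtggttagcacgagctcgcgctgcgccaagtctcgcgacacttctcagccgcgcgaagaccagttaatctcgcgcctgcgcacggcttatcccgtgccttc
Dennd5b: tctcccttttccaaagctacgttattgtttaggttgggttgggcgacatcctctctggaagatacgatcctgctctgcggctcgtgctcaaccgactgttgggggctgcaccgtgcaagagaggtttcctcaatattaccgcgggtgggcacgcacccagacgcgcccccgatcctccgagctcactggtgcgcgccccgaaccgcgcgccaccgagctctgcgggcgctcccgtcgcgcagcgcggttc
Mid1: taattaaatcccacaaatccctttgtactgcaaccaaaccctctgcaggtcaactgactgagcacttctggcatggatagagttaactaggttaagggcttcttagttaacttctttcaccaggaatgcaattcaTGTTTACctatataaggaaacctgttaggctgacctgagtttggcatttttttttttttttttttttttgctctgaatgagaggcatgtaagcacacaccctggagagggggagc

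The 4 stretches differed in composition. Those of Stag3 and Dennd5b were rich in CpG pairs (26 and 28, GC 62.8% and 63.6%), against a median of 6 and a GC of 52.4% over the 32851 stretches of the RefSeq table, while 1700080G11Rik had 2 (GC 50%) and the first Mid1 start site 0 (GC 40.8%). The E-box CACGTG stood 33 bases before the start of 1700080G11Rik and 170 bases before that of Stag3, and 6.02% of all stretches hold it. Stag3 also held CCAAT, present in 33.8% of stretches, and the first Mid1 start site the forkhead core TGTTTAC, present in 3.17%. The other Mid1 start sites, not printed, differed from the first. The second had 5 CpG pairs (GC 54%) and none of the 8 motifs, and the third had 9 (GC 54%) and CCAAT. The Dennd5b stretch held none of the 8. The other motifs searched, with the share of all stretches that hold them, were the CRE TGACGTCA (1.55%), the GC box GGGCGG (32.7%), the TATA box TATAAA (12.4%), the E2F core GCGGGAA (3.82%) and the AP-1 site TGACTCA (4.46%). These are matches of letters in a window and were not tested as binding sites.

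Stag3 had a larger difference than the other 3 called genes. In whole leukemia it read 8.33, 8.74 and 7.61 in WT and 5.28, 5.77 and 6.13 in AMPK_delta. In L-GMP the WT arrays read 8.56, 9.21 and 7.95 and the AMPK_delta arrays 5.79, 5.47 and 6.14. Every AMPK_delta array thus lay below every WT array, with a gap of more than 1 between the groups. The difference was -2.64 ± 0.26 (SE, 95% interval -3.20 to -2.08, n = 6 against 6 arrays), or 0.161 times the WT level (limma adjusted p = 0.00357). The WT arrays kept the same order by number in both populations, while the fit used 1 block correlation, 0.143, for all genes. The SE and p may therefore be too small for Stag3. With the 2 arrays of each genotype and number averaged, the limma adjusted p was 0.403.

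1700080G11Rik, for which the annotation gives no protein, was lower to a like degree. The WT whole arrays stood at 6.63, 7.45 and 6.74 and the AMPK_delta whole arrays at 4.72, 4.94 and 4.76. In L-GMP the values were 7.17, 7.66 and 7.66 in WT and 5.42, 4.63 and 4.43 in AMPK_delta. Most AMPK_delta arrays were at or near 4.72, the level below which genes were left out as dim, so the array may understate this fold. The difference was -2.40 ± 0.22 (SE), or 0.189 times the WT level (limma adjusted p = 0.00357).

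Dennd5b varied more among the WT arrays. It stood at 7.18, 7.47 and 6.75 in WT whole and at 6.47, 8.07 and 6.16 in WT L-GMP, while the AMPK_delta arrays held 4.44, 5.07 and 4.69 in whole leukemia and 5.08, 4.58 and 4.68 in L-GMP. All 6 AMPK_delta arrays were again below all 6 WT arrays. Most AMPK_delta arrays were at or below 4.72, the cut for dim genes, so this fold may be understated too. The difference was -2.26 ± 0.30 (SE), or 0.209 times the WT level (limma adjusted p = 0.0451), and a second probe set of the gene, not used in the test, gave -1.68 ± 0.31.

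Mid1 had a smaller and tighter difference. WT whole arrays read 6.70, 6.89 and 6.82 against 6.26, 6.07 and 6.20 in AMPK_delta, and WT L-GMP arrays 6.99, 6.96 and 7.32 against 6.21, 6.04 and 6.38. The 2 genotypes did not overlap. The difference was -0.75 ± 0.10 (SE), or 0.593 times the WT level (limma adjusted p = 0.0451), and a dimmer probe set of the gene gave -1.02 ± 0.20.

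The gene after Mid1 in the RefSeq order, Erdr1, also stood lower, without passing the test with all arrays and the random block. It read 11.74, 11.42 and 11.01 in WT whole, 10.50, 9.88 and 10.33 in AMPK_delta whole, 12.20, 11.70 and 11.33 in WT L-GMP and 10.77, 10.75 and 10.71 in AMPK_delta L-GMP. Its difference was -1.07 ± 0.17 (SE; limma adjusted p = 0.0899), with all WT arrays above all AMPK_delta arrays. It passed with the array number as a fixed block (adjusted p = 0.0333) and without both WT arrays of number 3 (-1.27, adjusted p = 0.0405). Those are the WT arrays nearest to AMPK_delta, so the latter p follows from leaving them out. Mouse Mid1 spans the boundary of the pseudoautosomal region, the stretch that the X and Y chromosomes share, and Erdr1 lies in that region. The other 7 nearest tested neighbours of the 4 called genes differed by -0.20 to 0.02, and 0 of them were separated in both populations.

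**Figure D1:**
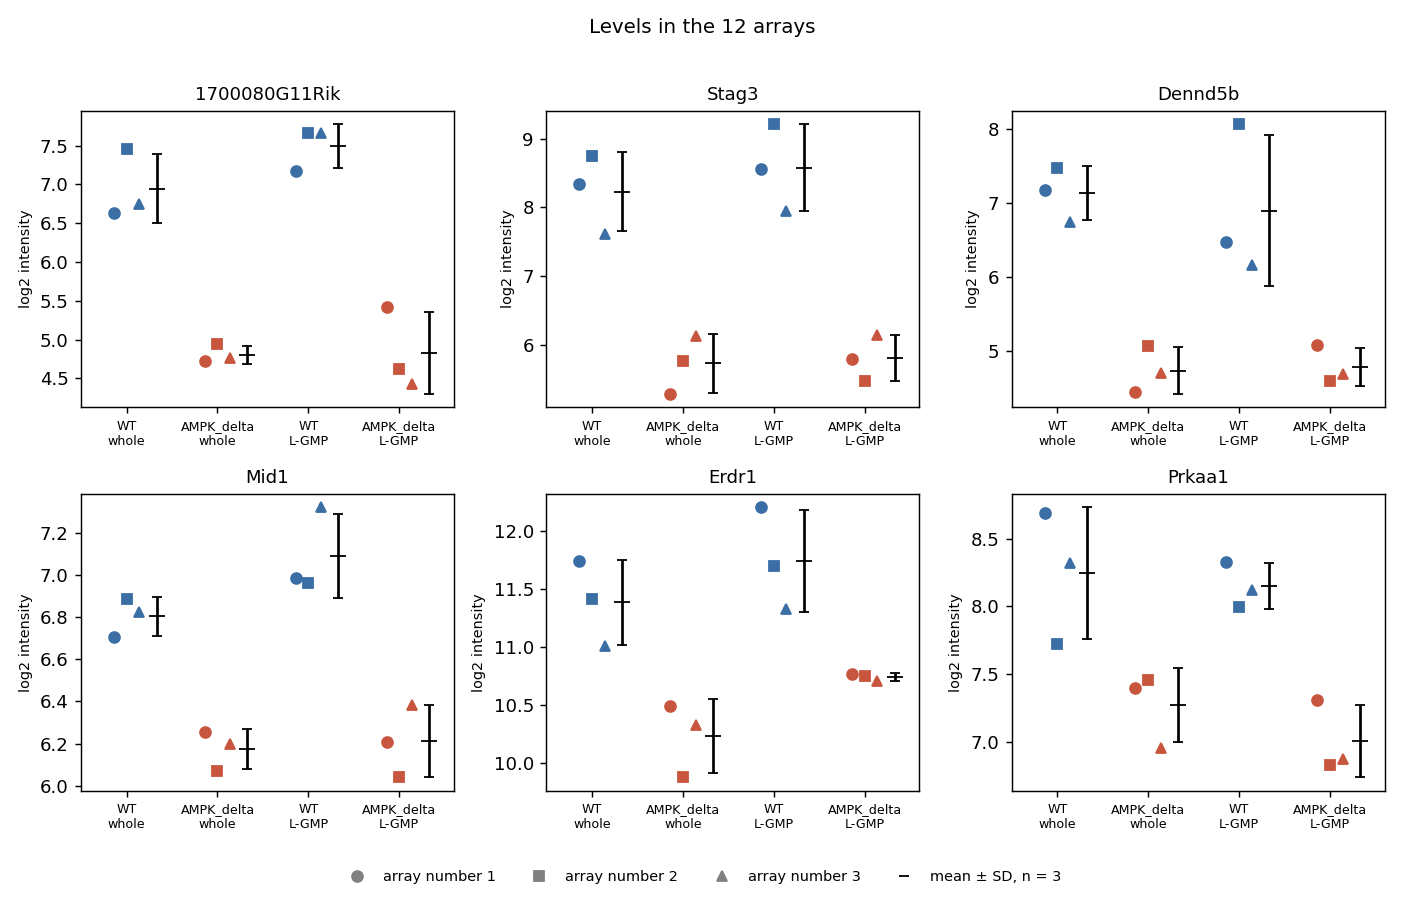
Log2 intensity of the 4 called genes, of Erdr1 and of Prkaa1 in each of the 12 arrays, by genotype and population; the symbol gives the array number and the bars the mean ± SD of 3 arrays. In all 6 panels each AMPK_delta array lies below each WT array of the same population.

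How firm the calls were differed by gene. 1700080G11Rik and Stag3 passed with any 1 array left out (limma adjusted p from 0.00413 to 0.0181 and from 0.00413 to 0.0203). Mid1 passed only without WT whole 3, WT L-GMP 1 or WT L-GMP 3 (adjusted p = 0.0487, 0.0448 and 0.0313) and reached up to 0.175 without any of the other 9 arrays. Dennd5b passed only without WT L-GMP 1, 2 or 3 (adjusted p = 0.0299, 0.0172 and 0.0279) and reached up to 0.226 without the others. When the 2 arrays of each genotype and number were averaged to 6 possible leukemias, 0 genes passed (limma, lowest adjusted p = 0.257, 1005 genes at an unadjusted p under 0.05). Over those 6 means an exact permutation test of 3 against 3 allows no two-sided p below 0.1. The 4 genes reach it by necessity, since all their AMPK_delta arrays lie below all their WT arrays. Prkaa1, which was not called, reaches 0.1 as well, so this test adds no support to the calls.

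The number of calls also moved with single arrays. It was 11 lower without WT L-GMP 1, 5 lower and 4 higher without WT whole 3, and 3 lower and 3 higher without AMPK_delta whole 2. Leaving out AMPK_delta whole 1, whole 3, L-GMP 1, L-GMP 2 or L-GMP 3 left 2 lower calls each time, Stag3 and 1700080G11Rik. Neither population alone gave a call (limma, 3 arrays against 3, lowest adjusted p = 0.429 in whole leukemia and 0.28 in L-GMP, with 884 and 757 genes at an unadjusted p under 0.05).

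**Figure D2:**
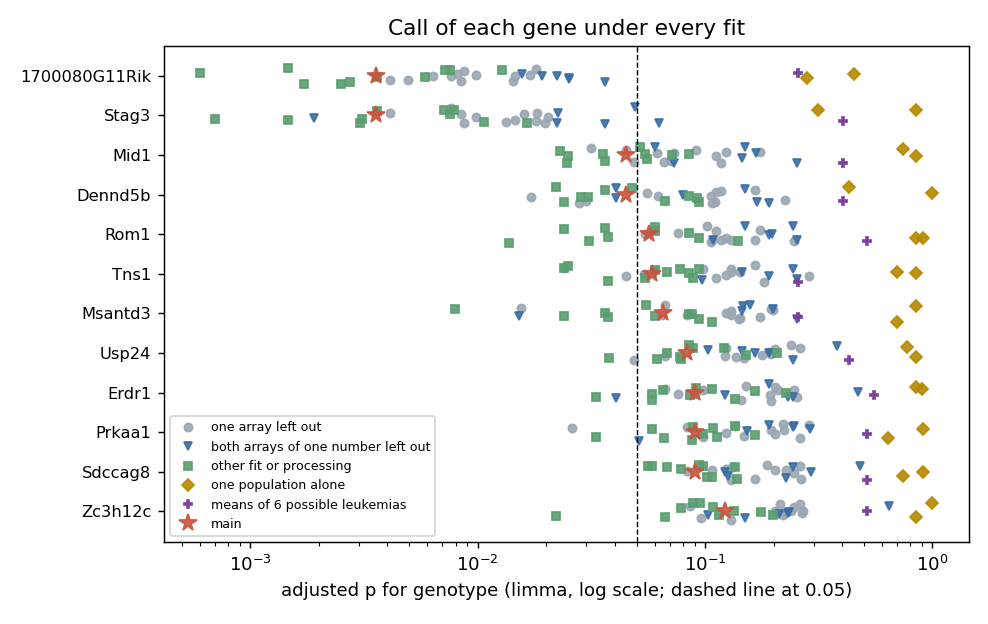
Adjusted p of the genotype difference (log axis, dashed line at 0.05) for 12 genes under the fit described and under each other way of fitting, processing or leaving out arrays. The points of 1700080G11Rik and Stag3 lie below 0.05 except for the averaged leukemias, the single populations and, for Stag3, 1 pair of arrays left out; those of the other 10 genes fall on both sides of 0.05 or above it.

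Prkaa1, the gene of the catalytic alpha 1 subunit of AMPK, was the one subunit gene with a clear genotype gap. It stood at 8.69, 7.72 and 8.32 in WT whole and at 7.40, 7.45 and 6.95 in AMPK_delta whole. In L-GMP it was 8.33, 7.99 and 8.12 in WT and 7.31, 6.83 and 6.87 in AMPK_delta. All AMPK_delta arrays lay below all WT arrays, with a difference of -1.06 ± 0.17 (SE, 95% interval -1.44 to -0.69), or 0.479 times the WT level. It did not pass over all genes (limma adjusted p = 0.0899, unadjusted p = 5.53e-05). With the array number as a fixed block it did (adjusted p = 0.0333). It also passed without WT whole 2, where the difference was -1.18 (adjusted p = 0.0261). That is the WT array nearest to AMPK_delta, so this p follows from leaving it out and adds no support. Whether the probe set lies inside the deleted part was not tested, since the labels do not give it.

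Prkaa2, the gene of the other catalytic subunit, alpha 2, was near background in all 12 arrays, from 4.66 to 5.05, and its difference was 0.04 ± 0.07 (95% interval -0.12 to 0.19). At this level a loss of alpha 2 could not be read. The scaffold gene Prkab1 differed by 0.35 ± 0.21 and Prkab2 by -0.26 ± 0.18. Of the gamma subunits Prkag1 differed by 0.06 ± 0.18, Prkag2 by -0.25 ± 0.14 and Prkag3 by 0.09 ± 0.07. None of these 6 was separated in both populations, and their limma adjusted p lay at 0.82 or above.

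Kinases around AMPK gave little. Of 16 upstream and related kinase genes tested, 8 lay higher and 8 lower, with a median difference of 0.00, and the single one separated in both populations was Strada, the pseudokinase that activates LKB1. Strada read 6.94, 6.82 and 7.06 in WT whole and 6.63, 6.63 and 6.67 in AMPK_delta whole, then 6.85, 6.79 and 7.11 against 6.74, 6.74 and 6.75 in L-GMP, a difference of -0.24 ± 0.07 (limma adjusted p = 0.577). Of 30 substrates and effectors of AMPK, 19 lay higher and 11 lower (median 0.08), beside 52.6% higher over all genes tested, and 3 were higher at an unadjusted p under 0.05, beside 3.09% of all genes. These were the histone deacetylase gene Hdac4 (0.56 ± 0.16), the sterol regulator Srebf2 (0.36 ± 0.13) and the glycolytic regulator Pfkfb3 (0.34 ± 0.12), none of which passed over all genes (limma adjusted p of 0.527 or above). The mTOR and TSC list had 7 of 18 higher and 10 lower (median -0.02). At an unadjusted p under 0.05, 2 were higher, beside 3.09% of all genes, and 0 lower. These were the mTOR target Eif4ebp1 (0.29 ± 0.12) and the PRAS40 gene Akt1s1 (0.23 ± 0.09). Neither passed over all genes (limma adjusted p = 0.731 and 0.695).

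The genes named next, which did not pass, were picked by lowest p among genes whose groups did not overlap in either population. Separation of the 3 AMPK_delta from the 3 WT arrays in the same direction in whole leukemia and again in L-GMP was found for 218 genes, 1.23% of those tested, 107 higher (0.603%) and 111 lower (0.625%). For 116 genes (0.654%), 50 higher (0.282%) and 66 lower (0.372%), all 6 AMPK_delta arrays were apart from all 6 WT arrays, and the 4 called genes are among the 66. Among the higher ones Msantd3, which encodes a Myb/SANT domain protein, was first by p. It read 5.33, 5.45 and 5.60 in WT whole, 7.04, 6.17 and 6.63 in AMPK_delta whole, 5.12, 5.51 and 5.19 in WT L-GMP and 6.91, 7.33 and 6.40 in AMPK_delta L-GMP. The difference was 1.38 ± 0.20 (SE, 2.6-fold, limma adjusted p = 0.0653), and it passed without AMPK_delta whole 2 (adjusted p = 0.0154). That is the AMPK_delta array nearest to WT, so the smaller p follows from leaving it out.

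Usp24, the gene of a deubiquitinating enzyme, was second among the higher genes. It stood at 7.25, 7.01 and 7.38 in WT whole and 7.85, 7.75 and 7.63 in AMPK_delta whole, and at 7.32, 7.32 and 7.33 in WT L-GMP against 7.79, 8.15 and 7.92 in AMPK_delta L-GMP. The difference was 0.58 ± 0.09 (limma adjusted p = 0.0835, and 0.0487 without WT whole 3). WT whole 3 is the WT array nearest to AMPK_delta, so the smaller p follows from leaving it out. In the RefSeq order only 1 tested gene stands between Usp24 and Prkaa2. Looked at after these values were seen, the 10 tested genes on each side of Prkaa2 differed by -0.22 to 0.58, and Usp24 was the only 1 of the 20 separated in both populations. The 20 around Prkaa1 differed by -0.90 to 0.50, with 0 separated.

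The other higher genes had several kinds of role. Pip5k1b, a kinase that makes the lipid PIP2, differed by 1.26 ± 0.24 and passed only without WT whole 3 (limma adjusted p = 0.0484). Fgl2, a fibrinogen-like protein of immune cells, differed by 1.06 ± 0.20 and passed only without AMPK_delta whole 2 (adjusted p = 0.0449) or with array weights. Ada, which encodes adenosine deaminase, stood 0.85 ± 0.17 higher, and Slc48a1, a heme transporter gene, 0.64 ± 0.13. Pisd-ps3 differed by 0.98 ± 0.19, Inafm2 by 0.80 ± 0.15, the ataxin gene Atxn1 by 0.66 ± 0.14, the ubiquitin ligase gene Rnf19b by 0.61 ± 0.14, the thrombin receptor gene F2rl3 by 0.44 ± 0.09 and the inositol phosphatase gene Synj2 by 0.34 ± 0.07. Their adjusted p lay between 0.157 and 0.288.

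On the lower side Rom1 and Tns1 were closest to the call. Rom1, known from photoreceptor membranes, was dim but even: 5.48, 5.40 and 5.45 in WT whole, 5.10, 4.98 and 5.11 in AMPK_delta whole, 5.61, 5.68 and 5.66 in WT L-GMP and 5.30, 5.16 and 5.26 in AMPK_delta L-GMP. Its difference was -0.39 ± 0.06 (limma adjusted p = 0.0569). Tns1, whose product links integrins to actin, read 7.79, 7.82 and 6.95 in WT whole, 6.05, 6.37 and 6.04 in AMPK_delta whole, 7.22, 7.43 and 7.55 in WT L-GMP and 6.17, 6.00 and 6.60 in AMPK_delta L-GMP. This is a difference of -1.26 ± 0.18 (adjusted p = 0.0584), which passed without WT whole 3 (0.024) and without WT L-GMP 1 (0.0448). Each is the WT array of its population nearest to AMPK_delta, so the smaller p follows from leaving it out. That neither gene overlapped between genotypes within a population follows from how they were picked.

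Zc3h12c, of the regnase family of RNA-binding proteins, had one of the largest differences among the genes named but also a wide spread. It stood at 8.43, 8.50 and 7.20 in WT whole, 5.03, 6.02 and 5.60 in AMPK_delta whole, 8.11, 8.69 and 7.70 in WT L-GMP and 6.55, 6.99 and 5.05 in AMPK_delta L-GMP. The difference was -2.23 ± 0.38 (limma adjusted p = 0.122; 0.022 with the array number as a fixed block). The centrosome gene Sdccag8 differed by -0.76 ± 0.12, Dglucy, which encodes D-glutamate cyclase, by -0.83 ± 0.14 and the bicarbonate transporter gene Slc4a8 by -0.57 ± 0.10, with adjusted p of 0.0899, 0.122 and 0.154.

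The called genes were chosen on their difference over both populations, so like differences in each are partly built in. Across the 17749 genes the whole leukemia and L-GMP differences correlated at 0.44, and 58.3% had the same sign; this is a description across genes, and the arrays of the 2 populations may share leukemias. A test of whether genotype acted differently in the populations called 0 genes (limma interaction, lowest adjusted p = 0.996), with 552 (3.11%) at an unadjusted p under 0.05. Its SE was 0.455 for Stag3, 0.362 for 1700080G11Rik, 0.541 for Dennd5b and 0.161 for Mid1, so it could not show that the differences were equal. The 4 called genes differed by -2.50, -2.14, -2.40 and -0.63 in whole leukemia (Stag3, 1700080G11Rik, Dennd5b, Mid1) and by -2.77, -2.67, -2.12 and -0.88 in L-GMP.

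Cd34, a gate gene, differed in whole leukemia. In whole leukemia it read 8.48, 9.38 and 8.35 in WT and 5.54, 6.65 and 7.05 in AMPK_delta, and in L-GMP, which was sorted for CD34, 9.67, 10.05 and 9.57 in WT and 9.45, 9.90 and 9.66 in AMPK_delta. The differences were -2.32 and -0.09, and the genotypes overlapped in L-GMP and not in whole leukemia (interaction: unadjusted p = 0.000725, limma adjusted p = 0.996). The other gate genes did not pass either: Kit, the c-kit gene, stood at 0.79 ± 0.35, Fcgr2b at -0.31 ± 0.22 and Fcgr3 at -0.13 ± 0.13.

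**Figure D3:**
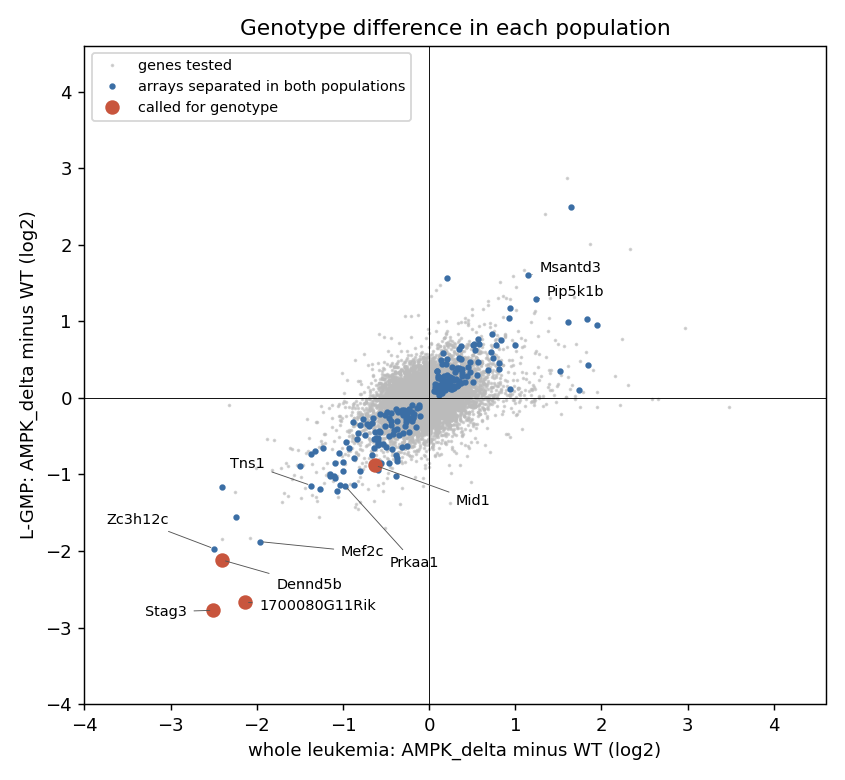
Genotype difference (AMPK_delta minus WT, log2 intensity) of each of the 17749 genes tested in whole leukemia (x axis) and in L-GMP (y axis), with the 218 genes separated in both populations in blue and the 4 called genes in red. Stag3, 1700080G11Rik and Dennd5b lie toward the lower left corner, at -2.14 or below in whole leukemia and -2.12 or below in L-GMP.

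Gene lists were described by their counts beside those of all genes, of which 52.6% lay higher and 47.4% lower in AMPK_delta (median difference 0.01). The lists hold 701 tested genes, of which 1 was called, Stag3, beside 0.0225% of all genes. Among genes that MLL-AF9 is known to hold active, 16 of 18 lay lower and 2 higher, with a median of -0.45 (-0.60 in whole leukemia, -0.41 in L-GMP), and 9 were lower at an unadjusted p under 0.05, beside 3.43% of all genes. The list's mean level was 7.78, 7.95 and 7.71 in WT whole, 7.12, 6.74 and 7.56 in AMPK_delta whole, 7.87, 8.10 and 7.75 in WT L-GMP and 7.57, 7.23 and 7.56 in AMPK_delta L-GMP. No AMPK_delta array reached a WT array of its population. Without the 2 AMPK_delta arrays of number 2, which were lowest in both populations, the median was -0.23.

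Mef2c, a transcription factor that MLL fusions keep active, was separated in both populations. It read 8.26, 8.38 and 7.73 in WT whole, 5.58, 7.19 and 5.70 in AMPK_delta whole, 8.50, 8.58 and 8.35 in WT L-GMP and 6.24, 7.95 and 5.61 in AMPK_delta L-GMP. The AMPK_delta arrays of number 2 stood above the other arrays of their groups, and the difference was -1.92 ± 0.38 (limma adjusted p = 0.216). Without these 2 arrays it was -2.52 (adjusted p = 0.000685). They are the AMPK_delta arrays nearest to WT, so the smaller p follows from leaving them out and adds no support. Tcf4, an E protein transcription factor, was separated in both populations too (-0.97 ± 0.18, adjusted p = 0.157). The receptor kinase gene Flt3 (-1.74 ± 0.51) and the homeobox gene Hoxa5 (-0.81 ± 0.23) overlapped in at least 1 population, and the homeobox gene Meis1 stood at -0.84 ± 0.35.

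Of 25 monocyte and macrophage genes 21 lay lower and 4 higher in AMPK_delta (median -0.49; -0.54 in whole leukemia and -0.21 in L-GMP). At an unadjusted p under 0.05, 10 of them were lower, beside 3.43% of all genes, and 2 were separated in both populations. The list's mean was 7.82, 7.78 and 7.40 in WT whole and 6.99, 6.82 and 7.22 in AMPK_delta whole, which did not overlap, and 6.71, 7.20 and 7.48 in WT L-GMP and 6.93, 6.51 and 6.71 in AMPK_delta L-GMP, which did. Mpeg1, the gene of the macrophage pore protein perforin-2, read 8.73, 9.15 and 8.28 in WT whole, 7.75, 7.39 and 8.03 in AMPK_delta whole, 7.36, 8.11 and 8.45 in WT L-GMP and 7.12, 6.93 and 7.02 in AMPK_delta L-GMP. Its groups did not overlap within a population (-0.98 ± 0.21, limma adjusted p = 0.279). Ly86, a partner of a Toll-like receptor homolog, differed by -1.46 ± 0.36 and passed only without WT L-GMP 1 (adjusted p = 0.0364). Fibronectin, Fn1, differed by -1.95 ± 0.59, Ms4a6c by -1.11 ± 0.32 and the protease gene Ctss, a member of the lysosome list as well, by -1.30 ± 0.40. Over 22 other settings the median of this list lay between -0.58 and -0.34.

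Neutrophil genes lay mostly higher, without a gap between genotypes. Of 23 tested, 19 lay higher and 4 lower (median 0.59), and the median was 0.99 in whole leukemia and -0.01 in L-GMP; this difference between populations was not tested. The mean level was 7.66, 7.47 and 9.58 in WT whole, 8.19, 10.27 and 9.50 in AMPK_delta whole, 6.71, 6.51 and 8.15 in WT L-GMP and 7.76, 6.56 and 7.35 in AMPK_delta L-GMP, so the genotypes overlapped in both. Without AMPK_delta whole 2 the median was 0.22, and without both WT arrays of number 3 it was 1.07. Camp, an antimicrobial granule protein gene, differed by 1.94 ± 0.96, S100a9 by 1.39 ± 0.58 and the G-CSF receptor gene Csf3r by 0.85 ± 0.28, none of which passed.

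Primary granule genes, made at the promyelocyte stage, had 15 of 17 members higher and 2 lower (median 0.23; 0.39 without AMPK_delta whole 2 and 0.14 without both WT arrays of number 2). Nkg7, a granule membrane protein gene that cytotoxic lymphocytes use too, was separated in both populations. It read 6.14, 6.28 and 6.61 in WT whole, 8.87, 7.94 and 7.15 in AMPK_delta whole, 5.90, 5.71 and 5.75 in WT L-GMP and 7.37, 10.82 and 6.66 in AMPK_delta L-GMP, a difference of 2.07 ± 0.64 (limma adjusted p = 0.577). The protease gene Prss57 stood 1.17 ± 0.38 higher and Ms4a3 0.98 ± 0.47. Eosinophil, basophil and mast cell genes had 10 of 13 higher (median 0.38), but 0.10 without the 2 AMPK_delta arrays of number 2. In those arrays Prg2, the eosinophil major basic protein gene, read 11.38 and 11.92, and AMPK_delta L-GMP 1 read 8.85 where the other 9 arrays held 5.45 to 6.59.

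Erythroid genes were near background in most arrays and high in 1. All 15 erythroid genes tested lay higher in AMPK_delta (median 0.91), and the list's mean was 5.28 to 5.37 in the 6 WT arrays, 9.21 in AMPK_delta whole 2, and 5.37 to 5.98 in the other 5 AMPK_delta arrays. Without AMPK_delta whole 2 the median was 0.24, with 15 of 15 still higher. Car2, a carbonic anhydrase gene, read 11.36 in that array, 6.96 in AMPK_delta whole 3, 7.17 in AMPK_delta L-GMP 2, and 4.49 to 5.01 in the other 9. Lymphoid lists differed little: 10 of 11 B cell genes and 9 of 14 T and NK cell genes lay higher, with medians of 0.06 and 0.10, and Cd3d read 8.50 in AMPK_delta whole 2 against 4.71 to 5.84 elsewhere. Without AMPK_delta whole 2 the 4 called genes differed by -2.69 (Stag3), -2.48 (1700080G11Rik), -2.32 (Dennd5b) and -0.76 (Mid1), with limma adjusted p of 0.0098, 0.0098, 0.0621 and 0.0732.

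**Figure D4:**
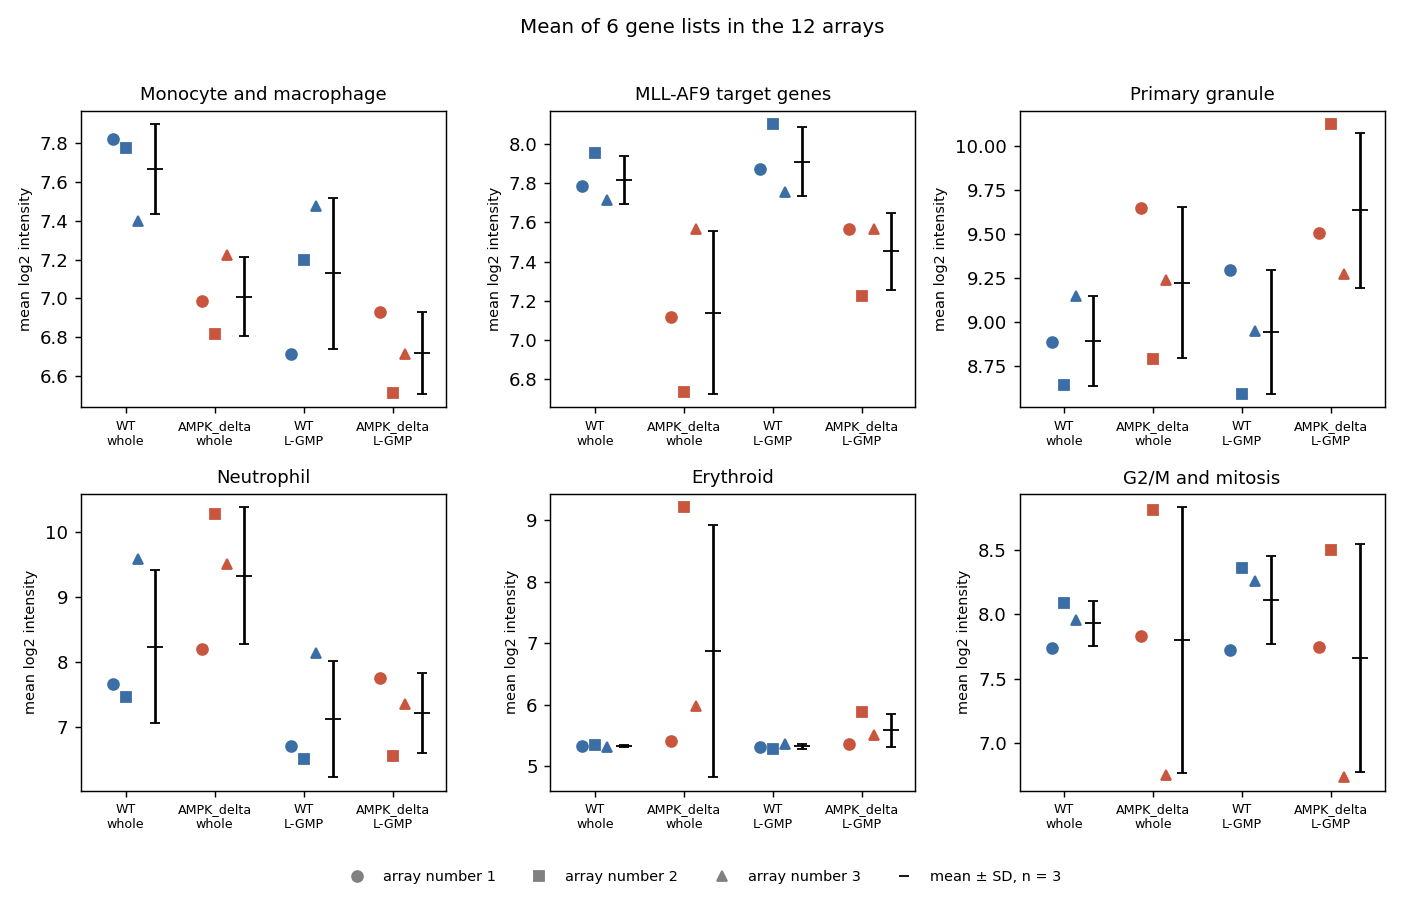
Mean log2 intensity of the tested members of 6 gene lists in each of the 12 arrays, by genotype and population; the symbol gives the array number and the bars the mean ± SD of 3 arrays. MLL-AF9 target genes are lower in every AMPK_delta array than in the WT arrays of the same population, erythroid genes reach 9.21 in AMPK_delta whole 2 alone, and G2/M genes are lowest in both AMPK_delta arrays of number 3.

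The metabolic lists differed little. Medians were -0.06 for 25 genes of glucose transport and glycolysis (11 higher, 14 lower), 0.11 for 15 of the pentose phosphate and NADPH list (11 and 4), 0.04 for 25 antioxidant genes (15 and 10), 0.09 for 20 of fatty acid oxidation (13 and 7), 0.06 for 18 of fatty acid and sterol synthesis (10 and 8), -0.02 for 26 of the tricarboxylic acid cycle (12 and 14) and -0.03 for 30 of the respiratory chain (11 and 19). With 22 other settings, these 7 medians stayed between -0.13 and 0.24. Of the 25 glycolysis genes, 6 lay lower at an unadjusted p under 0.05, beside 3.43% of all genes, with triosephosphate isomerase, Tpi1, first (-0.61 ± 0.19, limma adjusted p = 0.577), followed by the phosphofructokinase gene Pfkl (-0.49 ± 0.18) and the hexose transporter gene Slc2a6 (-0.43 ± 0.17).

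Single metabolic genes were separated in both populations without passing the test. Prdx4, a peroxiredoxin of the endoplasmic reticulum, read 7.79, 7.12 and 6.61 in WT whole, 6.31, 6.05 and 5.90 in AMPK_delta whole, 6.53, 7.52 and 7.21 in WT L-GMP and 6.14, 6.40 and 5.60 in AMPK_delta L-GMP (-1.07 ± 0.25, limma adjusted p = 0.345). Nadk2, the NAD kinase of mitochondria and a source of NADPH there, stood higher at 6.75, 7.51 and 6.75 against 6.04, 6.27 and 6.28 in whole leukemia and at 6.74, 7.46 and 6.80 against 6.26, 6.72 and 6.66 in L-GMP (0.63 ± 0.18, adjusted p = 0.49). Both show a small gap next to the spread within groups. Cox6b2, a cytochrome oxidase subunit known from testis, differed by -0.70 ± 0.17 and P4ha1, a collagen prolyl hydroxylase gene of the hypoxia list, by -0.64 ± 0.14, with adjusted p of 0.365 and 0.237. Hypoxia genes were lower in 16 of 22 cases (median -0.10), and Vegfa, the growth factor gene among them, stood 0.71 ± 0.31 higher.

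Cell cycle and interferon lists followed the array number. All 23 G2/M genes lay lower (median -0.30), and the list's mean was 6.75 and 6.74 in the 2 AMPK_delta arrays of number 3, 7.74 to 7.83 in those of number 1, 8.50 and 8.81 in those of number 2 and 7.72 to 8.36 in the 6 WT arrays. Without the number 3 pair all 23 lay higher (median 0.21), and without the number 2 pair the median was -0.75. Of 22 G1/S genes, 17 lay lower with all arrays (median -0.12) and 19 lay higher without the number 3 pair (median 0.11). Ccna2, the cyclin A2 gene, differed by -0.56 ± 0.46 with all arrays and by 0.04 without the number 3 pair. Interferon response genes lay lower in 20 of 24 cases (median -0.39), but the mean was 7.99 and 7.76 in the 2 WT arrays of number 2 and 5.74 to 6.54 in the other 10. Without these 2 arrays 18 of 24 lay higher (median 0.31). Mx1, an antiviral GTPase gene, read 6.97 and 6.55 in those 2 arrays and 4.48 to 4.77 in the rest. None of these lists therefore kept its direction when 1 pair of arrays was left out.

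Stag3 was the only call among the cohesin genes, and the meiosis list had 0, beside 0.0225% of all genes. The lists were chosen with earlier results of these data known, so a call in a list that holds Stag3 is no result about cohesin. At so low a share, 0 calls say nothing about the meiosis list. Of 15 cohesin genes 11 lay lower (median -0.12; 0.05 without the AMPK_delta pair of number 3), with Pds5b at -0.57 ± 0.19 and Wapl, which releases cohesin from DNA, at 0.28 ± 0.13. Of 15 meiosis and germline genes tested 11 lay lower and 4 higher, with a median of -0.03. Hormad2, which encodes a meiotic chromosome axis protein, split the WT arrays by number. It read 6.65, 6.91 and 4.96 in WT whole and 7.28, 7.52 and 4.88 in WT L-GMP, while the 6 AMPK_delta arrays held 4.78 to 5.12. WT number 3 thus stood at the AMPK_delta level in both populations, and the difference was -1.41 ± 0.45 (limma adjusted p = 0.587) with it and -2.14 (adjusted p = 0.00132) without it. The pair left out is the one that goes against the difference, so the smaller p follows from that omission and adds no support.

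Sex-linked genes were read as a check on the samples. Xist, expressed from the inactive X chromosome, was 4.53 to 4.66 in the 6 WT arrays and 4.66 to 6.47 in the 6 AMPK_delta arrays. It was highest in both AMPK_delta arrays of number 2 (6.47 and 5.95) and separated within each population (0.74 ± 0.28, limma adjusted p = 0.688). In whole leukemia the nearest values, 4.623 in WT whole 2 and 4.655 in AMPK_delta whole 3, both lay under 4.72, the cut for dim genes. Of the genes on the Y chromosome, Kdm5d differed by 0.09 ± 0.14, Uty by -0.07 ± 0.13 and Eif2s3y by -0.17 ± 0.13, and none of the 3 was separated in both populations. In all 12 arrays they read above the cut, Eif2s3y at 7.647 to 8.434, Kdm5d at 6.351 to 7.195 and Uty at 5.933 to 6.598. The sex of the cells was not tested. The remaining lists had medians between -0.12 and 0.12. They were the lists for stem and progenitor cells, megakaryocytes, stroma, antigen presentation, adhesion, lysosome, mitochondrial biogenesis, DNA synthesis in G1/S (its change of direction is given above), p53, apoptosis, protein folding stress, MYC and inflammation. In these lists 0 genes were called, beside 0.0225% of all genes.

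**Figure D5:**
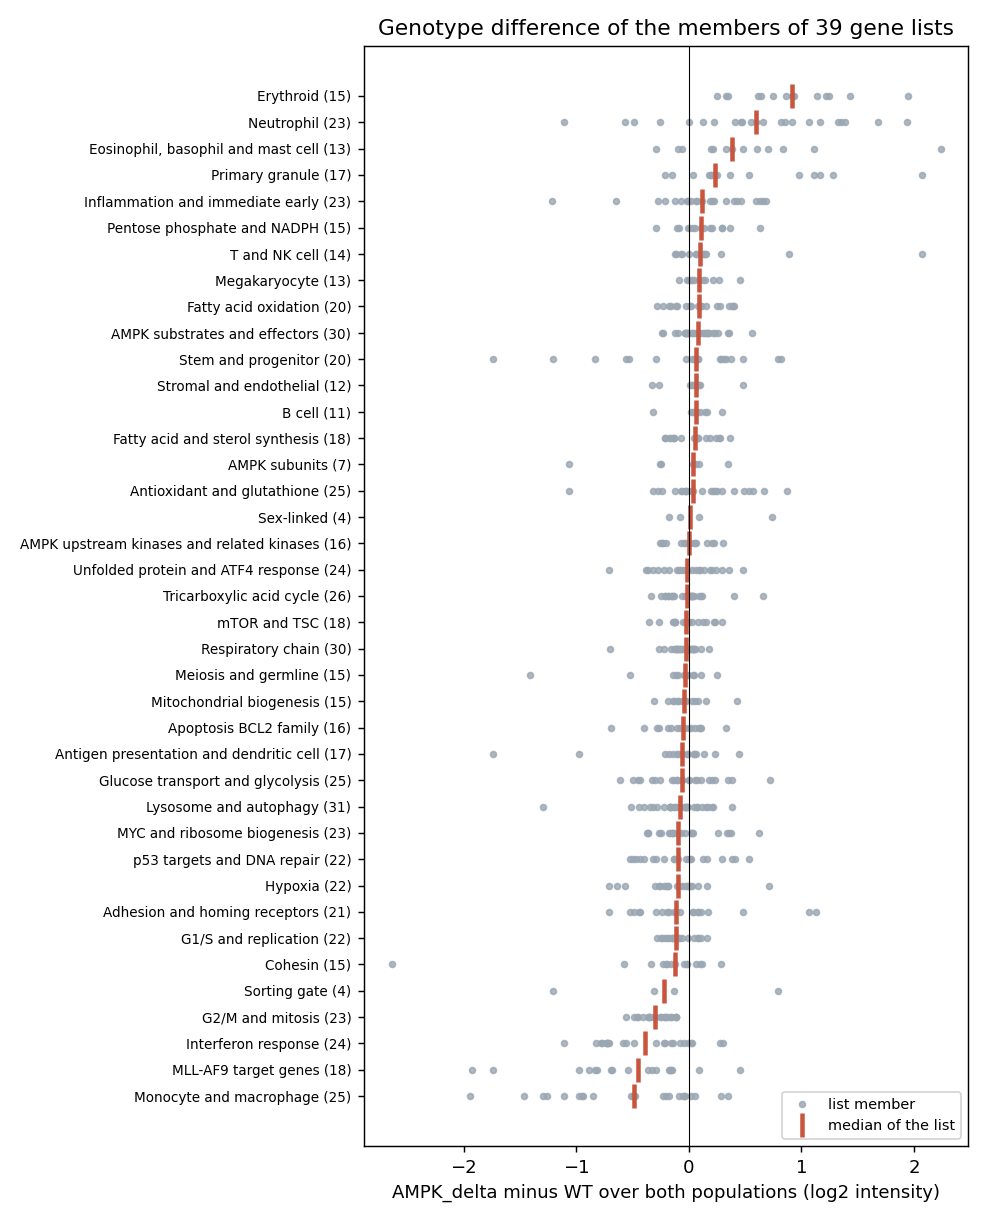
Genotype difference over both populations (AMPK_delta minus WT, log2 intensity) of each tested member of the 39 gene lists, with the number of members in brackets and the list median as a red bar. The medians run from -0.49 for monocyte and macrophage genes to 0.91 for erythroid genes, and the point farthest left is Stag3 in the cohesin list.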

How the data were processed

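Whole-transcript cDNA of the 12 sorted samples was amplified with NuGEN kits, labelled with biotin and hybridised to one-colour arrays, per the labels' protocols. The deposited values are linear intensities of 33794 probe sets, from 18 to 9108.2; how they were background-corrected and scaled, and with which software, is not given in the sources used here. They were taken to log2 with no pseudocount and no further scaling. The platform annotation gave 23521 probe sets 1 symbol, 1814 several and 8459 none. A gene with more than 1 such probe set was read from the brightest, and a mean log2 under 4.72, the 25% point over probe sets, removed 4431 dim genes. The 6500 probe sets without a single symbol that passed the same filter gave 0 calls (limma, lowest adjusted p = 0.698, 392 at an unadjusted p under 0.05).

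Genotype was tested with limma 3.58.1 (R 4.3.3, statmod 1.5.0), lmFit and eBayes, with population as a covariate, genotype and number as a random block (duplicateCorrelation, correlation 0.143) and Benjamini-Hochberg adjustment over 17749 genes, called at 0.05. The residual degrees of freedom were 9, with 2.43 prior ones; the number of arrays limits the precision, with a median SE of 0.117 and a 95% half-width of 0.26. Each SE quoted is that of the fit. It rests on this 1 correlation for every gene, so it may be too small where paired arrays track each other more closely. A list is described with no test. The script was tested on simulated data. The members and lists were chosen with earlier results of these data known. Genes named are the AMPK subunits, called genes, those of lowest p separated in both populations (12 a direction), up to 4 of lowest p in a list, gate and sex-linked genes and neighbours of called genes; clone names only if called. The genes around Prkaa1 and Prkaa2 were looked at after their values were seen. Alternatives were other blocks, quantile normalization, an offset of 16, other filters, variance models, array weights, probe set means, single populations and arrays left out. Where a gene passed without the arrays nearest to the other genotype, that p follows from the omission and is a description. RefSeq tables of GRCm38.p6 gave promoters and gene order; 99.2% of gene identifiers matched.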

Additional observations from a re-analysis of the deposited data

Results flagged for a closer look

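Groups were the 6 arrays of 1 genotype for 1 of 76 named genes, with the mean of each population over both genotypes taken off. In 6 of 152 groups checked a single array stood apart by Dixon's test, and chance gives about 1 in 20 groups. In 5 of the 6 it was AMPK_delta whole 2, which read 9.88 for Erdr1, 5.68 for the phosphofructokinase gene Pfkl, 6.80 for Ms4a6c, 9.49 for the cohesin release factor gene Wapl and 8.50 for the T cell receptor gene Cd3d. The sixth was Hormad2 in AMPK_delta L-GMP 2, at 4.78, in a group that spans only 4.78 to 5.12. As read, the next lowest value of that group was 4.89, in AMPK_delta whole 3. The mean taken off includes the WT arrays, so WT levels enter this gap. The cause was not tested.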

How the results depend on the processing

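Across 31 alternatives 1700080G11Rik, Stag3, Dennd5b, Mid1 and Prkaa1 stayed lower in AMPK_delta, and the interaction test called 0 genes wherever it was run. Leaving out arrays could not change that direction, since all AMPK_delta arrays of these genes lay below all WT arrays. Whether they passed did change: they were called in 28, 27, 11, 8 and 2 of the 31 (limma adjusted p under 0.05). The count of calls moved. Without a replicate block 2 genes were higher and 6 lower; with the number as a fixed replicate block 0 and 7 (Prkaa1 -1.06, adjusted p = 0.0333); with the block made by averaging the arrays of each genotype and number 0 and 0. Quantile normalization gave 1 and 5, a trended robust variance 1 and 5, array weights 3 and 10, an offset of 16 gave 0 and 2, the mean of probe sets 0 and 2, an interaction term 0 and 2, and either population alone 0 and 0. With 1 array left out the counts ran from 0 to 4 higher and from 2 to 11 lower, Prkaa1 from -1.18 to -0.98 and the genes separated in both populations from 293 to 485, since fewer arrays have to be separated. Without both WT arrays of number 1, 2 or 3, 779, 500 and 607 genes were separated and 6, 3 and 5 were called lower, with 1 higher call without number 3. Over these 6 omissions of a pair Prkaa1 ran from -1.23 to -0.91. Without both AMPK_delta arrays of number 1, 2 or 3, 758, 622 and 646 were separated and 1, 4 and 2 were called lower, with 1 higher call without number 2.

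As to the pairing, deviations of whole and L-GMP arrays of one number correlated at 0.36, 0.62 and 0.30 in WT and at 0.13, 0.09 and 0.43 in AMPK_delta, so not every pair passed 0.1, and AMPK_delta whole 1 and L-GMP 2 each correlated best with another number. Small differences changed sign. Prkaa2 was -0.01 with array weights and -0.02 in L-GMP alone. Prkag1 was -0.06 with array weights, -0.03 without AMPK_delta whole 2, -0.01 without WT L-GMP 1 and without both WT arrays of number 1, and -0.02 and -0.04 without both AMPK_delta arrays of number 2 and 3 (up to 0.25 without those of number 1). Fcgr3 was 0.07 in L-GMP alone, Uty 0.06 in whole leukemia alone and 0.01 without both WT arrays of number 3 (-0.17 without those of number 2), Kdm5d 0.00 without AMPK_delta whole 1 and -0.03 without both of number 1 (0.20 without both of number 2), and Ccna2 0.04 without both of number 3 and -1.23 without both of number 2. The cause of these changes was not tested. Genes near 4.72, such as Prkaa2, give little signal over background to compare.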
